A study of Homo sapiens with 12 samples.

Results

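The transcriptional response to epidermal growth factor (EGF) was described in HEK293 cells (a line from human embryonic kidney) that lack functional genes for both catalytic subunits of AMP-activated kinase, PRKAA1 and PRKAA2 (AMPK KO). The members are 4 of the 12 libraries of the series, chosen by their labels: AMPK KO DMSO+EGF replicates 2 and 3, compared with AMPK KO DMSO replicates 2 and 3. RNA was total RNA depleted of ribosomal RNA and sequenced as stranded libraries, so noncoding RNAs were measured beside messenger RNAs. All 4 samples were AMPK KO and had been starved of serum for 24 h. The EGF group received 0.025% DMSO for 20 min and then EGF for 30 min, and its control received the same DMSO without EGF. The other 8 libraries were wild-type (WT) cells given DMSO or DMSO+EGF, and both lines given 25 µM cordycepin before EGF, with 2 libraries in each group. By their labels, these were also starved for 24 h and pretreated for 20 min, and EGF, where given, lasted 30 min. The sources used here did not agree on the EGF concentration (15 µM or 15 nM), on the time of DMSO in the control (20 or 50 min) or on the serum left during starvation, which the labels give as 0.1%. The double knockout was made with CRISPR, and whether the line is 1 clone was not stated. The study names the replicates biological, but how their cultures were kept separate was not stated. The p-values measure the spread between replicate samples, pooled over all 12 libraries.

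EGF binds its receptor, a tyrosine kinase, which recruits adapter proteins and starts the RAS, RAF, MEK and ERK kinase cascade. ERK phosphorylates ternary complex factors such as ELK1, which sit with serum response factor (SRF) on CArG boxes in promoters, and so switches on immediate early genes without new protein synthesis. These genes encode short-lived transcription factors such as EGR1 and FOS, together with phosphatases and other inhibitors that later turn the pathway down. AMPK is a sensor of low cellular energy that restrains growth pathways such as mTOR signalling.

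The AMPK KO libraries held 15201606 and 16839000 reads on listed genes without EGF and 14119794 and 14065542 with it, and the series ran from 3987180 to 26315534. WT DMSO replicate 3 was the shallowest library, and comparisons with WT rest partly on it. Replicates correlated across genes, on log2 values, at 0.972 without EGF and 0.977 with EGF in AMPK KO cells, and at 0.918 in WT DMSO. The AMPK KO libraries still held transcripts of the targeted genes. PRKAA1 was at 7.62 and 7.37 RPKM (reads scaled to gene length and library size) without EGF and at 8.51 and 7.49 RPKM with EGF, below the 15.4 to 21.9 RPKM of the 4 WT libraries without cordycepin. PRKAA2 was at 5.59 and 6.09 RPKM without EGF and 6.96 and 6.71 RPKM with EGF, while the same WT libraries held 7.97 to 12.1 RPKM. A transcript level does not report on the protein. Of 7 genes that mark HEK293 cells, 6 reached the expression limit for testing and NEFM did not. VIM (vimentin) was at 59.1 to 75.4 RPKM and NEFL (neurofilament light chain) at 22.3 to 28 RPKM in the 4 AMPK KO libraries. Of 8 genes that mark other cell types, such as PTPRC and ALB, 0 reached the expression limit for testing.

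Of 22067 genes tested, 3 were higher after EGF in AMPK KO cells at an adjusted p under 0.05 (0.0136% of genes) and 0 were lower (0%), by limma with Benjamini-Hochberg adjustment. Without adjustment, 227 genes (1.03%) were higher and 308 (1.4%) lower at p under 0.05. The 3 were EGR1, FOS and EGR3, and all 3 encode transcription factors of the immediate early class. EGR1 and EGR3 are zinc finger proteins of the early growth response family, and FOS pairs with JUN proteins to form the AP-1 complex.

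CArG boxes, the 10-base elements bound by SRF (CC, then 6 bases that are each A or T, then GG), were found upstream of all 3 genes. They are shown for the called genes EGR1 and FOS and for FOSB, which was higher at the study threshold, and the capitals mark each box. All sequences are hg38, plus strand, and end before the gene start of GENCODE release 44.
EGR1 distal cluster, chr5:138465036-138465149: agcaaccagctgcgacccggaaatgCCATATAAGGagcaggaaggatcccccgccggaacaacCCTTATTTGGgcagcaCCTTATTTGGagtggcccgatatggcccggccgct
EGR1 proximal pair, chr5:138465349-138465430: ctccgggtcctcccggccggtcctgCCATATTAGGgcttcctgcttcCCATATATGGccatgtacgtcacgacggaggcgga
FOS, chr14:75278489-75278548: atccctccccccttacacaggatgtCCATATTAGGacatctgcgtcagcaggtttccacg
FOSB, chr19:45467697-45467756: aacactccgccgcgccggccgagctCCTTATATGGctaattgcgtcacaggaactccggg
EGR1 held 5 boxes, starting 418, 380, 364, 105 and 83 bases before the gene start. FOS held 1, at 312 bases, FOSB 1, at 273 bases, and EGR3 1, at 71 bases, while EGR2 held 0 in this window. The gene start was the outermost annotated end, so promoters of transcripts that start further inside a gene, EGR2 included, were not searched. In windows from 500 bases before to 50 bases after the start, searched on both strands because the element reads the same on each, 324 of 12809 tested nuclear protein-coding genes (2.53%) held at least 1. Among the 22 tested immediate early transcription factors 4 did (18.2%). A match is a description of the letters and not of binding.

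EGR1 (ENSG00000120738, chromosome 5, 138465479 to 138469303, plus strand) was at 2.38 and 2.17 RPKM in the DMSO libraries and at 106.5 and 106.9 RPKM in the EGF libraries. These values rest on 115 and 112 reads without EGF and on 4620 and 4632 reads with it. Both EGF libraries were far above both DMSO libraries, and the replicates were close to each other. Mean RPKM rose from 2.27 ± 0.152 to 106.7 ± 0.309 (SD, n = 2), which is 46.9-fold. On the log2 scale the difference was 5.28 (SE 0.19, adjusted p = 9.73e-06). That log2 value, like all those below, is on the scale of log2(scaled RPKM + 0.5), which understates changes of genes with low values.

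FOS (ENSG00000170345, chromosome 14, 75278826 to 75282230, plus strand) was at 0.755 and 0.552 RPKM without EGF, from 37 and 29 reads, and at 6.22 and 5.75 RPKM with EGF, from 274 and 253 reads. The groups did not overlap. Mean RPKM rose 9.16-fold, which is 2.50 on the log2 scale (SE 0.21, adjusted p = 0.00624). The EGR1 relative EGR3 (ENSG00000179388, chromosome 8, 22687659 to 22693480, minus strand) was at 0.491 and 0.639 RPKM without EGF, from 38 and 53 reads, and at 4.38 and 4.82 RPKM with EGF, from 305 and 335 reads. Again both EGF libraries were above both controls. Mean RPKM rose 8.15-fold, which is 2.26 on the log2 scale (SE 0.17, adjusted p = 0.00411). After EGF the RPKM level of EGR1, which is per unit length, was far above those of FOS and EGR3. In bulk RNA, a like rise in every cell and a larger rise in some cells cannot be told apart.
The adjusted calls of FOS and EGR3, unlike that of EGR1, rested on the spread pooled over the series. When only the 4 AMPK KO libraries were fitted for this comparison, which leaves 2 residual degrees of freedom, their adjusted p was 0.333 and 0.343. Without AMPK KO DMSO replicate 3, AMPK KO DMSO+EGF replicate 2 or AMPK KO DMSO+EGF replicate 3, their adjusted p lay between 0.0526 and 0.146, with log2 fold changes of 2.36 to 2.55 for FOS and 2.20 to 2.36 for EGR3.

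**Figure D1:**
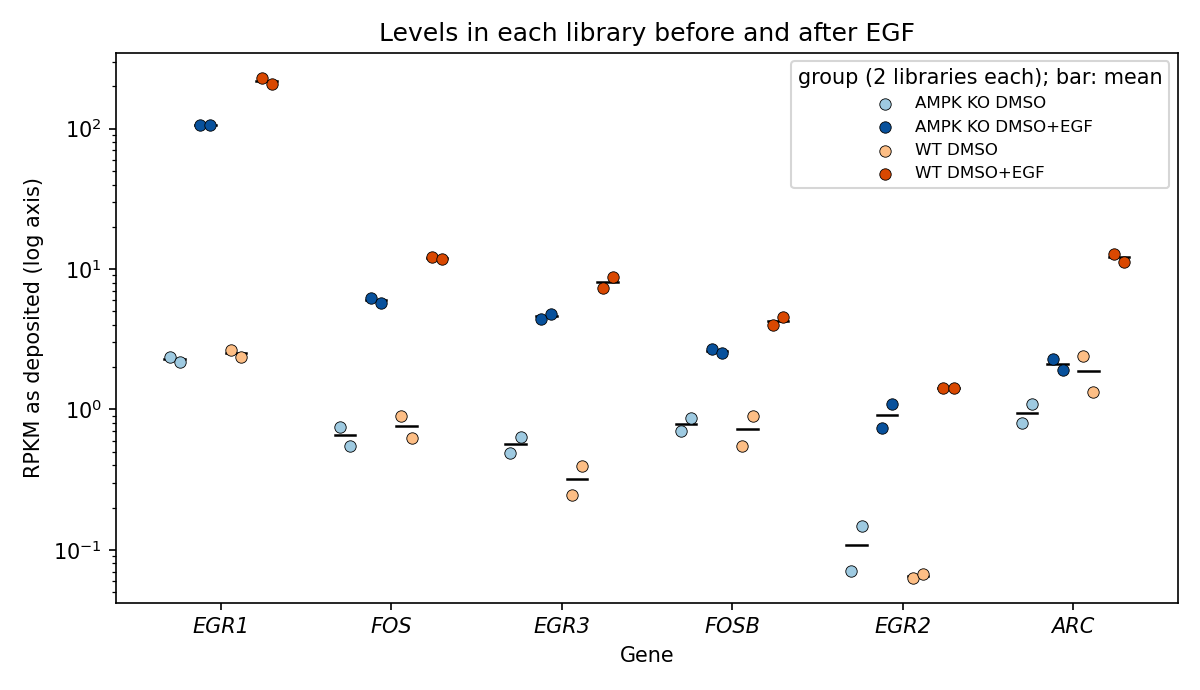
Deposited RPKM, on a log axis, of EGR1, FOS, EGR3, FOSB, EGR2 and ARC in the 8 libraries of AMPK KO and WT cells without cordycepin, with 1 point for each library and a bar at the mean of the 2. In each gene both AMPK KO EGF libraries lie above both AMPK KO DMSO libraries and below both WT EGF libraries, and EGR1 reaches 106.7 RPKM on average in AMPK KO cells.

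The study called a gene changed when its log2 fold change was 1 or more in size and its p, without adjustment, did not exceed 0.05. By that rule 63 genes were higher (0.285%) and 68 lower (0.308%) after EGF in AMPK KO cells. Of the 63 higher genes, 5 were protein coding, and these 5 were EGR1, FOS, EGR3, FOSB and EGR2. FOSB, a FOS relative that also joins AP-1, was at 0.702 and 0.863 RPKM without EGF and at 2.71 and 2.53 RPKM with EGF (60 and 79 against 208 and 194 reads). Its log2 fold change was 1.29 (SE 0.20, adjusted p = 0.611). EGR2, another zinc finger protein of the EGR family, was at 0.0701 and 0.147 RPKM without EGF and at 0.741 and 1.09 RPKM with EGF (4 and 9 against 38 and 56 reads). Its log2 fold change was 1.21 (SE 0.19, adjusted p = 0.611). Both genes kept their groups apart, and neither passed adjustment over all genes. Without EGF the mean of EGR2 was 0.109 RPKM, so higher values in other groups carried it over the limit of 0.5 RPKM. At a limit of 1 RPKM EGR2 was not tested. The pseudocount weighed most on EGR2: its log2 fold change was 2.29 with a pseudocount of 0.1 and 3.03 (SE 0.52, adjusted p = 0.139) with limma voom on the recovered reads.

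The remaining genes at the study threshold were of other classes. Among the 63 higher genes, 24 were pseudogenes, 21 small noncoding RNAs and 12 long noncoding RNAs. Among the 68 lower genes, 28 were long noncoding RNAs, 18 pseudogenes, 18 small noncoding RNAs and 1 protein coding. Protein-coding genes were 12822 of the 22067 tested (58.1%), against 7.9% of the higher and 1.5% of the lower genes at the threshold. These genes were short and thinly covered. Their median exon length was 284 bases for the higher and 379.5 bases for the lower genes, against 3046.5 bases over all genes tested, and 73% and 63.2% of them had a single exon block against 24.3%. Averaged over the 4 libraries, 59 of the 63 higher and all 68 lower genes had under 50 reads, as did 7877 of all tested genes (35.7%). The 4 higher genes with 50 or more reads were EGR1, FOS, EGR3 and FOSB. The counts at this threshold moved with single libraries: 156 higher and 118 lower genes without AMPK KO DMSO replicate 2, 120 lower without AMPK KO DMSO+EGF replicate 2 and 138 lower without AMPK KO DMSO+EGF replicate 3. They were 114 and 153 with a pseudocount of 0.1 and 36 and 24 with a pseudocount of 1.

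**Figure D2:**
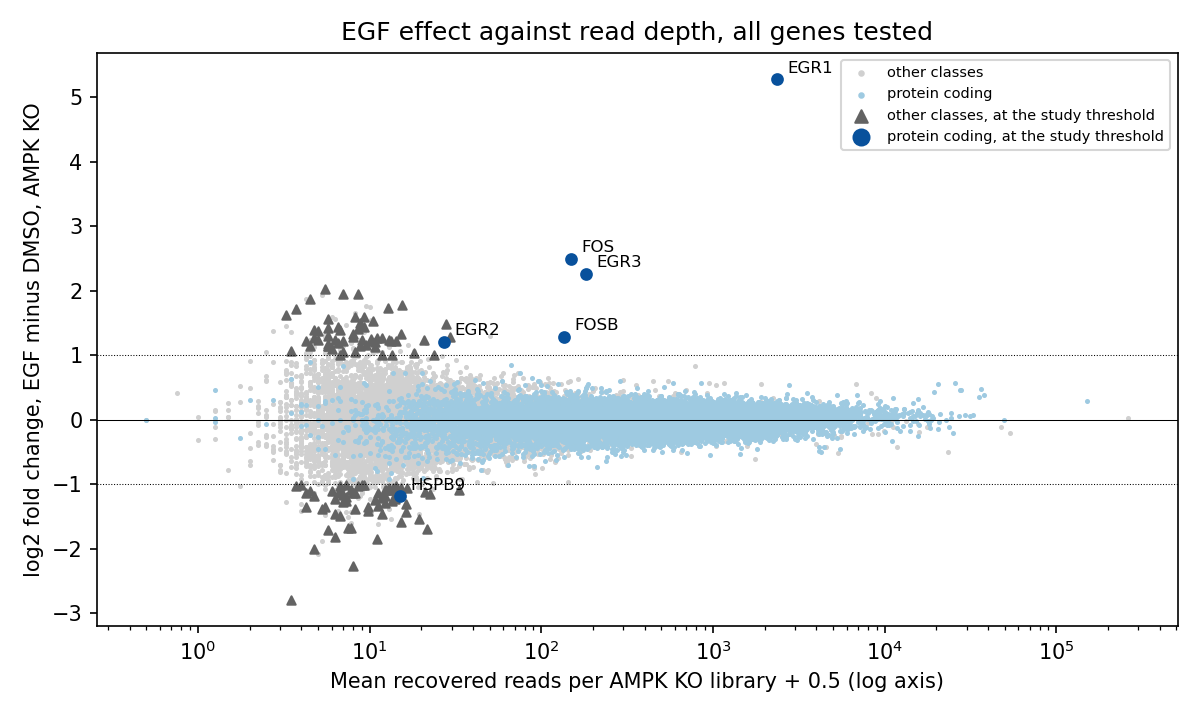
The log2 fold change after EGF in AMPK KO cells of the 22067 genes tested, against the mean recovered reads per AMPK KO library plus 0.5 on a log axis, with protein-coding genes in blue and other classes in grey and the dotted lines at a change of 1 in either direction. Larger symbols are the 63 higher and 68 lower genes at the study threshold: EGR1, FOS, EGR3 and FOSB stand apart above 50 reads, and the others lie to the left.

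Under the rule for naming genes, which also asked for a mean of at least 1 RPKM and no overlap, 47 higher and 52 lower genes remained. The 3 largest rises were EGR1, FOS and EGR3. The next was the processed pseudogene ENSG00000268967, with 2 and 0 reads without EGF and 5 and 13 reads with it (log2 fold change 2.02, SE 0.50). Ranks 5 to 10 were RNU6-537P, a Y_RNA copy, SNORD111B, ENSG00000231961, RNU6-1201P and MIR554, with log2 fold changes of 1.59 to 1.95 and at most 26 reads in any of the 4 libraries. The largest fall was RNU4-21P, a copy of the U4 spliceosomal RNA, with 6 and 6 reads without EGF and 0 and 0 with it. The other 9 of the 10 largest falls were RNU6-110P, 3 Y_RNA copies, MIR320B2, ENSG00000254909, RNU4-78P, ENSG00000281369 and ENSG00000274427, with log2 fold changes from -1.99 to -1.53. None of these falls, and none of the rises below rank 3, passed adjustment, and copies of U6, U4 and Y RNA are near-identical, so their reads could be split between copies. The 1 protein-coding gene that was lower at the threshold was HSPB9, a small heat shock protein gene, named here after its values were seen. It had 20 and 25 reads without EGF and 8 and 5 with it (log2 fold change -1.18, SE 0.42). In WT cells it was at 0.32 and 0.45 RPKM without EGF (3 and 1 reads) and at 1.22 and 1.55 RPKM with it (17 and 14 reads).

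Over the protein-coding genes, 46 were higher and 80 lower at an unadjusted p of at most 0.05, and 6 had an absolute log2 fold change of 1 or more. Among the rises, ARC, CHAC2 and CCN2 lay just under the threshold of 1, at 0.85, 0.73 and 0.65, with FOSB and EGR2 just above it at 1.29 and 1.21. Among the falls, ETDC and FREY1 did not reach it, at -0.91 and -0.89, and HSPB9 passed it at -1.18. CHAC2, a glutathione-degrading enzyme, ETDC and FREY1 are named here after their values were seen. The median log2 fold change over all genes tested was 0.01, and 11333 of 22067 genes (51.4%) had a positive value.

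The immediate early transcription factors were described as a list of 24 genes, of which 22 could be tested. EGR4 and KLF2 were under the expression limit. In the AMPK KO cells 20 of the 22 had a positive log2 fold change, with a median of 0.32. At an adjusted p under 0.05 there were 3 higher and 0 lower. At an unadjusted p under 0.05 there were 7 higher and 0 lower, beside 1.03% and 1.4% of all tested genes. Both EGF libraries were above both DMSO libraries in 18 of the 22 and below in 1, where 19.2% of all tested genes were without overlap and higher and 19.3% without overlap and lower. The 7 were the 5 genes above with JUN and KLF6. JUN, the usual partner of FOS in AP-1, was at 33.7 and 39.1 RPKM without EGF and at 45.7 and 44.9 RPKM with EGF (log2 fold change 0.32, SE 0.14), so it was already abundant in starved cells. KLF6, a zinc finger factor, was at 8.57 and 9.04 RPKM without EGF and at 11.1 and 10.3 RPKM with EGF (0.28, SE 0.12).

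Further members had positive values that did not pass the unadjusted test. MYC, a regulator of growth and ribosome production, was at 6.89 and 6.99 RPKM without EGF and at 11.2 and 9.83 RPKM with EGF (log2 fold change 0.57, SE 0.28). JUNB, another AP-1 member, was at 7.63 and 7.86 RPKM without EGF and at 10.8 and 10.6 RPKM with EGF (0.46, SE 0.20). In both genes the groups did not overlap. IER2, a short-lived nuclear protein, was at 6.18 and 3.92 RPKM without EGF and at 7.45 and 7.93 RPKM with EGF (0.60, SE 0.30), where the DMSO replicates were far apart. The nuclear receptor NR4A1 and the stress-inducible factor ATF3 had log2 fold changes of 0.22 and 0.15. MAFK, a small MAF protein, was the only member with both EGF libraries below both controls: 3.53 and 4.43 RPKM without EGF, 3.14 and 3.27 RPKM with EGF (-0.26, SE 0.17). Without the 5 genes at the study threshold, the median of the remaining 17 members was 0.25, and 13 of them were without overlap and higher.

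Of 25 feedback inhibitors, 24 were tested, DUSP2 not being in the table. None was called at an adjusted p under 0.05 or at the study threshold. At an unadjusted p under 0.05, 3 were higher and 0 lower, beside 1.03% and 1.4% of all tested genes. The median log2 fold change was 0.19, 18 of 24 values were positive, and 15 genes were without overlap and higher against 2 lower, beside 19.2% and 19.3% of all tested genes. The 3 were TRIB1, DUSP6 and DUSP1. TRIB1, a pseudokinase that directs proteins to degradation, was at 12.3 and 10.4 RPKM without EGF and at 17.4 and 16.5 RPKM with EGF (0.57, SE 0.23). DUSP6, the phosphatase of ERK in the cytoplasm, was at 2.69 and 2.50 RPKM without EGF and at 3.79 and 3.88 RPKM with EGF (0.49, SE 0.16). DUSP1, a nuclear MAP kinase phosphatase, was at 11.1 and 12.1 RPKM without EGF and at 14.7 and 14.6 RPKM with EGF (0.33, SE 0.13). In each the EGF libraries were both above the DMSO libraries.
SPRY2 and SPRY4, Sprouty inhibitors of receptor signalling, had log2 fold changes of 0.34 and 0.31 without overlap, and ZFP36, which promotes decay of AU-rich messenger RNAs, had 0.52 (SE 0.26). ERRFI1, a direct inhibitor of the EGF receptor, had 0.20. The EGR corepressors NAB1 and NAB2 had 0.19 and -0.13. None of these 6 passed the unadjusted test.

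Of 23 other immediate early genes, which encode secreted, cytoskeletal and signalling proteins, 21 were tested. PTGS2 was under the expression limit. None was called at an adjusted p under 0.05 or at the study threshold. At an unadjusted p under 0.05, 4 were higher and 0 lower, beside 1.03% and 1.4% of all tested genes. The median was 0.10 with 17 positive values, where 51.4% of all tested genes had one. Without overlap, 10 were higher and 2 lower, beside 19.2% and 19.3% of all tested genes. ARC, a capsid-like protein best known in neurons, was at 0.803 and 1.09 RPKM without EGF and at 2.27 and 1.91 RPKM with EGF (log2 fold change 0.85, SE 0.29). CCN2, a matrix-associated growth factor, was at 1.92 and 1.87 RPKM without EGF and at 3.22 and 3.25 RPKM with EGF (0.65, SE 0.15). Replicates were close to each other and the groups were apart. CCN1, a related matrix protein, and GEM, a small GTP-binding protein, had 0.49 (SE 0.20) and 0.51 (SE 0.17). PHLDA1 and PLAUR had negative values, -0.26 and -0.19, with both EGF libraries below both controls but no pass of the unadjusted test. The actin genes ACTB and ACTG1, classical SRF targets at 446.5 to 569.3 RPKM, had log2 fold changes of 0.06 and 0.08 with overlapping groups.

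**Figure D3:**
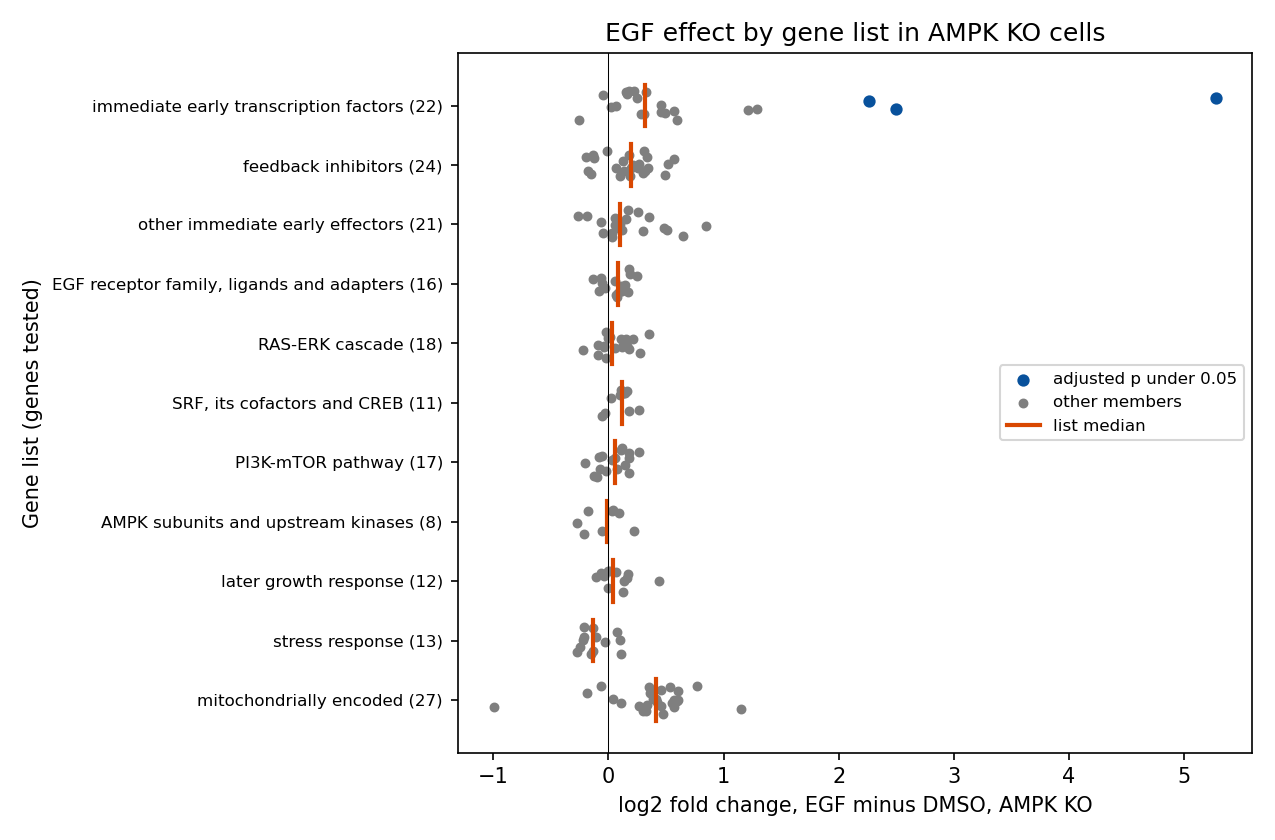
The log2 fold change after EGF in AMPK KO cells (horizontal axis) of each tested member of 10 gene lists and of the mitochondrially encoded genes, with the list median as an orange bar and genes at an adjusted p under 0.05 in blue. The 3 blue points are EGR1, FOS and EGR3, and the medians run from -0.14 for the stress response to 0.42 for the mitochondrially encoded genes.

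The genes that carry the signal from the receptor to the nucleus gave no call in these cells. In the lists of the EGF receptor family with its ligands and adapters (16 of 21 tested), the RAS-ERK cascade (18 of 18), SRF with its cofactors and CREB (11 of 11) and the PI3K-mTOR pathway (17 of 18), 0 genes were called at an adjusted p under 0.05, at the study threshold or at an unadjusted p under 0.05. Their median log2 fold changes were 0.08, 0.03, 0.12 and 0.06. EGFR, the receptor of EGF, was at 0.770 and 0.678 RPKM without EGF and at 1.01 and 0.75 RPKM with EGF. It was at 2.75 and 0.810 RPKM in the WT DMSO and at 2.72 and 2.52 RPKM in the WT DMSO+EGF libraries. Of its ligands, EGF and BTC were under the expression limit, AREG, EREG and EPGN were not in the table, and TGFA was at 0.925 to 1.38 RPKM in the AMPK KO libraries. SRF was at 32.7 and 34.1 RPKM without EGF and 30.9 and 34 RPKM with EGF. ELK1 was at 17.1 and 14.9 RPKM without EGF and 15 and 17.2 RPKM with EGF. In both genes the groups overlapped. The untested PIK3R2 was under the expression limit.

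Genes of AMPK itself, of later growth and of stress gave no called gene either, adjusted or not. Of the 8 tested of 9 AMPK subunits and upstream kinases, PRKAG3 not being in the table, the median was -0.01. STK11, the kinase LKB1 that activates AMPK, was at 11.8 and 14.1 RPKM without EGF and at 10.3 and 10.8 RPKM with EGF (-0.27, SE 0.17). The 12 later growth genes, such as CCND1 (cyclin D1) and ODC1 (polyamine synthesis), had a median of 0.04 and values up to 0.44. The 13 stress genes had a median of -0.14 with 3 positive values, 2 without overlap and higher and 4 lower, beside 19.2% and 19.3% of all tested genes. Leaving out AMPK KO DMSO replicate 3 turned that median to 0.01, and leaving out replicate 2 of the same group took it to -0.22. The heat shock gene HSPA1A was at 620.5 and 745.8 RPKM without EGF and 624 and 632.6 RPKM with EGF. The HEK293 line genes had a median of 0.16, with 6 of 7 tested and NEFM under the expression limit.

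The 13 messenger RNAs of the mitochondrial genome all had positive log2 fold changes, from 0.30 to 0.57 with a median of 0.43, and 10 were without overlap and higher, beside 19.2% of all tested genes. None passed the unadjusted test. Without AMPK KO DMSO replicate 3 the log2 fold change of MT-CO1 was -0.01, and without AMPK KO DMSO+EGF replicate 3 the median of all 27 mitochondrially encoded genes fell from 0.42 to 0.23. Mitochondrial genes took 2.66% and 2.13% of reads without EGF and 2.68% and 3.43% with EGF. Of these libraries, the share was highest in AMPK KO DMSO+EGF replicate 3. Over all 27 mitochondrially encoded genes 1 was at the study threshold, the transfer RNA MT-TE at 1.15 (SE 0.37). In WT cells 2 of the 13 messenger RNAs had positive values, with a median of -0.16. The mitochondrial share of reads there was 2.75% and 4.545% without EGF and 3.97% and 2.55% with EGF. The share of 4.545%, the highest of the series, was in WT DMSO replicate 3, the shallowest library. The part of RNA quality or cell state in these values was not tested.

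Neighbours of the 3 called genes were examined within 100000 bases. FOS had no tested neighbour. Beside EGR1 lies the long noncoding RNA ENSG00000289267, 801 bases upstream on the opposite strand (chromosome 5, 138463990 to 138464678), with 2 and 3 reads without EGF and 6 and 7 with EGF (log2 fold change 0.70, SE 0.39). Beside EGR3 lies ENSG00000261026, a long noncoding RNA of the same strand that begins 3650 bases past its end. It had 2 and 1 reads without EGF and 22 and 32 with EGF (0.77, SE 0.24, adjusted p = 1), which passed the unadjusted test alone. Its mean was 0.0191 RPKM without and 0.391 RPKM with EGF, under the limit of 0.5 RPKM. It was tested only because other groups raised its mean over all libraries, such as AMPK KO cordycepin+EGF at 2.35 RPKM. On recovered reads, with limma voom, its log2 fold change was 4.02 (SE 0.96, adjusted p = 1). In WT cells it was at 0.071 and 0 RPKM without EGF (6 and 0 reads) and at 0.73 and 0.85 RPKM with EGF (93 and 70 reads). The WT library with 0 reads was the shallowest of the series. The pseudogene RPL7P19 near EGR1 had 0.51 (SE 0.32), and the other 9 tested neighbours, KDM3B, REEP2, ETF1, HSPA9, BIN3, CCAR2, C8orf58, ENSG00000289155 and ENSG00000253200, had log2 fold changes from -0.26 to 0.16.

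The response of AMPK KO cells was then set beside that of WT cells, which shares no library with it. In WT cells 5 genes were higher at an adjusted p under 0.05 (0.0227% of genes), and these were EGR1, FOS, EGR3, FOSB and EGR2. EGR2 was over the expression limit only through the groups in which it was higher than in AMPK KO DMSO. Their log2 fold changes in WT cells were 6.16, 3.29, 3.35, 1.95 and 1.75, against 5.28, 2.50, 2.26, 1.29 and 1.21 in AMPK KO cells. The pooled spread served both lines, although the SD of the replicate differences (log2) was not alike. It was 0.695 in WT DMSO and 0.377 in WT DMSO+EGF, against 0.406 and 0.371 in AMPK KO cells. The difference was tested directly as an interaction, and 0 genes passed at an adjusted p under 0.05 (0%), with 1917 (8.69%) at an unadjusted p under 0.05. Without WT DMSO replicate 2, which leaves the shallowest library as the WT control, 13 passed, all of them noncoding RNAs or pseudogenes. All 5 effects were smaller in AMPK KO cells. The difference was -0.88 (SE 0.26) for EGR1, -0.79 (SE 0.30) for FOS, -1.09 (SE 0.24) for EGR3, -0.66 (SE 0.29) for FOSB and -0.54 (SE 0.26) for EGR2. The adjusted p of each was 0.569 to 0.593, and all but EGR2 were under 0.05 before adjustment. EGR1 and EGR3 were also under it in all 19 alternatives, FOS in 12 of them and FOSB in 8, so for FOS and FOSB the pass before adjustment depended on the setting. EGR1 began at a like level in both lines, 2.27 ± 0.152 RPKM in AMPK KO and 2.51 ± 0.187 RPKM in WT cells, and reached 106.7 ± 0.309 and 218.5 ± 15.8 RPKM (SD, n = 2). FOS reached 5.99 ± 0.331 RPKM in AMPK KO and 12 ± 0.267 RPKM in WT cells.

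ARC had the largest gap among the response lists. In WT cells it was at 2.41 and 1.33 RPKM without EGF and at 12.9 and 11.3 RPKM with EGF, so that its level after EGF in AMPK KO cells was within the range of unstimulated WT cells. The difference between the effects was -1.57 (SE 0.41). DUSP1, at 9.63 and 9.62 RPKM without EGF and 20.7 and 20.3 RPKM with EGF in WT cells, differed by -0.69 (SE 0.18). Both had an adjusted p of 0.569 and were under 0.05 before adjustment. Of the 22 immediate early transcription factors 18 had the larger value in WT cells, of the 24 feedback inhibitors 15 and of the 21 other immediate early genes 15, against 11287 of 22067 genes tested (51.1%). At an unadjusted interaction p under 0.05 the log2 fold change was lower in AMPK KO cells for 7, 3 and 1 members of the 3 lists and higher for 0. Of all tested genes it was lower in 5.38% and higher in 3.3%. The difference is signed, so these counts include genes that fell in AMPK KO cells and rose in WT cells, such as MAFK. WT medians of the 3 lists were 0.605, 0.27 and 0.16.

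**Figure D4:**
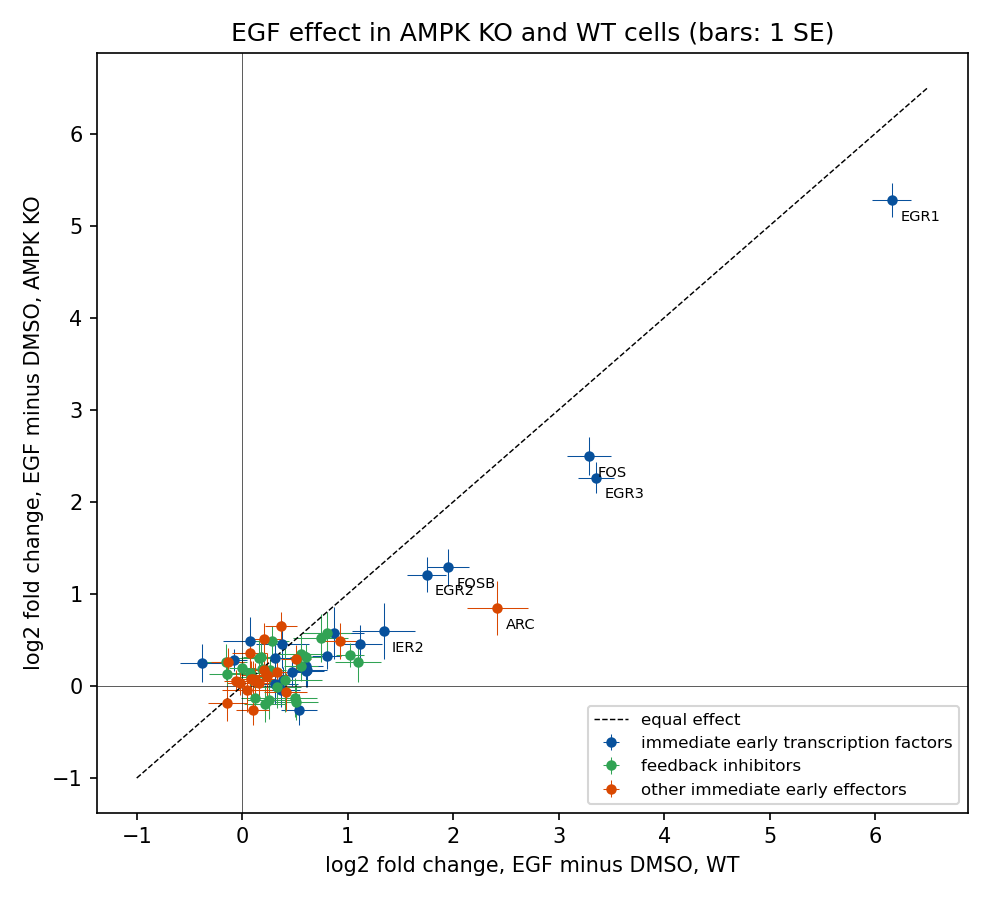
The log2 fold change after EGF in AMPK KO cells (vertical axis) against that in WT cells (horizontal axis) for the 67 tested members of the 3 response lists, with bars of 1 SE and a dashed line of equal effect. EGR1, FOS, EGR3, FOSB, EGR2 and ARC all lie below the line, and 48 of the 67 points do.

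At the study threshold WT cells had 216 higher (0.979%) and 123 lower genes (0.557%). The higher lists shared 8 genes, which are 12.7% of the AMPK KO and 3.7% of the WT list: EGR1, EGR2, EGR3, FOS, FOSB, the pseudogene TMSB10P2, the long noncoding RNA ENSG00000289237 and a Metazoa_SRP copy. The last 3 were named after their values were seen. The lower lists shared 1 gene, the pseudogene ENSG00000275515, which is 1.5% and 0.81% of them. Of the 216 higher genes of WT cells 41 were protein coding, and 20 of these 41 had a positive value in AMPK KO cells. Among the 12809 tested nuclear protein-coding genes, 6945 did. Of the 41, 12 were without overlap and higher in AMPK KO cells, beside 2826 of the 12809 nuclear protein-coding genes. The 12 include EGR1, FOS, EGR3, FOSB and EGR2.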

How the data were processed

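RNA of 12 HEK293 samples was sequenced as stranded paired reads after ribosomal RNA depletion, 2 libraries in each of 6 groups. Per the study's methods, the authors used Rsubread to map reads to GRCh38.p13 and to count them, and the deposited values are RPKM. FastQC is named in the submitters' processing notes. Another replicate of each condition had been set aside by the authors as an outlier and was not analysed here. A further 2 rows without a gene were left out, which left 26058 genes, of which 26029 matched GENCODE 44 by identifier.

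The deposited RPKM values were whole multiples of the value of 1 read: 25082 genes (96.25%) gave whole reads in all libraries at the annotated exon length, within 0.05 of a read, and 26055 (99.99%) after the length was searched for. The denominators behind the RPKM were 0.979 to 1.161 times the recovered reads of a library, so a scaling per library was already in the values. Reads carry no molecular identifiers.

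As in the study, RPKM values were scaled to a common upper quartile (the 75th percentile). The 22067 genes with a mean of at least 0.5 RPKM over all libraries were tested as log2(scaled RPKM + 0.5) with limma 3.58.1 in R 4.3.3: all 12 libraries in 1 fit of group means, contrasts, eBayes with trend, two-sided, Benjamini-Hochberg over all genes tested. Residual degrees of freedom were 6, and 8.96 after moderation. Standard errors (SE) are the moderated ones. Groups without overlap were counted on deposited RPKM. The script was tested on simulated data. Tried as alternatives were a pseudocount of 0.1 or 1, testing every listed gene, a limit of 1 RPKM, RPKM as deposited, median-ratio scaling, only the compared groups, a replicate block over all libraries or within each line, eBayes without trend, voom on recovered reads and leaving out single libraries.

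Named genes were PRKAA1, PRKAA2, EGR1, FOS, EGR3, tested members of the 12 lists and of the mitochondrially encoded genes, tested genes within 100000 bases of EGR1, FOS or EGR3, and the 10 largest rises and falls at the study threshold with a mean of at least 1 RPKM in the 4 libraries and no overlap. The members and lists were chosen with earlier results of these data known. CArG boxes were searched in hg38. The values of a few listed genes are not reported here.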

Additional observations from a re-analysis of the deposited data

Results flagged for a closer look

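Among the 193 tested listed genes reported here, 19 (9.84%) moved one way in both AMPK KO EGF libraries against both AMPK KO DMSO libraries and the opposite way in WT cells, without overlap in either line, as did 2281 of all 22067 genes tested (10.3%). None passed the interaction test at an adjusted p under 0.05, and the values that follow are the EGF effect in AMPK KO cells minus that in WT cells, on the log2 scale. Among response genes, the difference was -0.80 for MAFK, 0.63 for KLF10, -0.36 for PHLDA1 and -0.25 for LRIG1. Among genes of receptor and RAS-ERK signalling, it was 0.39 for NRAS, 0.38 for SOS1, 0.36 for NF1, -0.20 for ARAF and -0.47 for ERBB2. In the PI3K-mTOR, SRF and AMPK lists, it was -0.25 for TSC2, 0.53 for ATF1, -0.74 for STK11 and -0.18 for CAMKK2. For growth, stress and line genes, it was -0.52 for CAD, 0.51 for LDHA, -0.43 for ASNS, -0.67 for DDIT4 and 0.53 for INA. The ribosomal RNA MT-RNR1 differed by 2.10, in libraries that had been depleted of ribosomal RNA. WT DMSO replicate 3 held the highest mitochondrial share of reads of the series (4.545%).

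The AMPK KO cordycepin+EGF libraries, which enter no comparison here, also held the 3 called genes above the AMPK KO DMSO libraries. Mean RPKM there was 57 for EGR1, 8.27 for FOS and 5.04 for EGR3.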

How the results depend on the processing

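EGR1 was called at an adjusted p under 0.05 in all 15 alternatives that touch the AMPK KO comparison, with log2 fold changes of 5.04 to 5.55. FOS was called in 10 of the 15 (2.08 to 3.20) and EGR3 in 11 (1.84 to 3.02). A fit of only the compared groups gave 1 higher gene, and counts were 1 to 4 when single AMPK KO libraries were left out, with 0 lower genes in each. The 4th gene, without AMPK KO DMSO replicate 2, was RNU6-97P, named after its values were seen. At the study threshold, counts of higher and lower genes were 114 and 153 with a pseudocount of 0.1, 36 and 24 with a pseudocount of 1, and 94 and 115 with voom on recovered reads. Leaving out single AMPK KO libraries gave 77 to 156 higher and 88 to 138 lower genes. Protein-coding genes among them were 4 to 9 higher and 0 to 7 lower over the alternatives. The replicate differences with and without EGF correlated across genes at -0.068 in AMPK KO and at 0.136 in WT cells. With a single replicate difference per group, these values cannot show whether the cultures were paired. With a replicate block over all libraries 3 genes were higher, and 69 and 79 passed the study threshold. With the replicate block set within each line, 2 genes were higher and FOS had an adjusted p of 0.0591. The interaction had 0 called genes except without WT DMSO replicate 2, which leaves the shallowest library as the only WT control and gave 13, all noncoding RNAs or pseudogenes, so leaving out single libraries gave 0 to 13. EGR1, FOS, EGR3 and ARC kept a negative difference without each WT library. Genes under 50 reads, most of those at the study threshold, had more widely spread log2 fold changes (SD 0.416) than genes with more reads (SD 0.156 to 0.219). The part of counting error in that spread was not tested.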

Other observations

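EGR4, the remaining member of the EGR family, was under the expression limit and was not tested. It had 7 and 1 reads without EGF and 9 and 17 reads with EGF in AMPK KO cells. In WT cells it had 0 and 0 without and 17 and 5 with EGF. These reads are not scaled for depth, and the WT libraries without cordycepin ran from 3987180 to 24894371 reads.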
